A study of Arabidopsis thaliana with 6 samples.

Results

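The genes described here are 3 genes of mitosis in Arabidopsis thaliana: 3xHMG-box1 (AT4G11080), 3xHMG-box2 (AT4G23800) and BUBR1 (AT2G33560). They were found through the platform annotation of the array, which gave each gene 1 probe set of its own: 254964_at for 3xHMG-box1, 254233_at for 3xHMG-box2 and 255790_at for BUBR1. No probe set annotated to several genes held any of them. They are 3 of the 22810 probe sets of the array. RefSeq lists 1 transcript for 3xHMG-box1 and 2 each for 3xHMG-box2 and BUBR1, and a probe set gives 1 value for all transcripts it detects.

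The RNA came from root meristems that were microdissected from seedlings 7 days after sowing, grown without treatment in days of 16 hours of light at 21 °C. Wild-type plants (WT, 3 arrays) were compared with plants labelled 35S:miR396 (3 arrays), which overexpress the microRNA miR396. The name 35S is the usual one for a viral promoter that is active in most plant tissues and not only in the meristem. Which miR396 gene was used, and how many plant lines, is not stated in the labels. The labels call the samples biological replicates but do not say how their plants were kept apart, so a p-value here reflects only how far these 3 and 3 samples scatter, which may be technical.

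Proteins with an HMG box bind and bend DNA. The 3xHMG-box proteins are a plant family with 3 such boxes, made mainly in dividing cells, and during mitosis they associate with the condensed chromosomes. BUBR1 belongs to the spindle assembly checkpoint, which holds a cell in mitosis until every chromosome is attached to the spindle. In animals BUBR1 does this with MAD2, BUB3 and CDC20 by holding back the anaphase-promoting complex, the ubiquitin ligase that starts the separation of chromosomes. MicroRNA miR396 cleaves the transcripts of growth-regulating factors, which act on cell division in meristems. The comparison asks whether transcripts of these mitotic genes differed in meristems with more miR396.

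Values are log2 GCRMA values, a background-corrected and normalised array signal on which 1 unit is a doubling. All 3 genes passed the filter in every array: each had a log2 value of at least 4 in 6 of 6 arrays, the minimum that a probe set had to reach in at least 3 arrays to be tested. This minimum is not a detection call. The median over all probe sets lay between 3.88 and 3.99 in the 6 arrays. None of the 3 genes differed between the groups at an adjusted p under 0.05 in limma's test across all probe sets, where 25.0% of the 11364 tested probe sets did. At an unadjusted p under 0.05 there was 1 of the 3, BUBR1, against 40.4% of all tested probe sets. The 3 arrays of one group did not overlap those of the other for 1 of the 3 genes, again BUBR1, and for 45.7% of all tested probe sets.

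The wild-type arrays gave log2 values for 3xHMG-box1 of 7.53, 7.38 and 7.40 in replicates 1, 2 and 3. In 35S:miR396 its values were 7.61, 7.45 and 7.50 in the same order of replicates. The groups overlapped, with replicates 2 and 3 of 35S:miR396 inside the range of wild type and replicate 1 above it. Means were 7.43 ± 0.08 in wild type and 7.52 ± 0.09 in 35S:miR396 (SD, n = 3 each). Its log2 fold change was 0.09 ± 0.08 (SE), which is 1.06-fold, with an adjusted p of 0.479 by limma. The 95% interval ran from 0.924-fold to 1.22-fold. The exact two-sided permutation test over the 6 arrays gave p = 0.3, where 3 against 3 arrays cannot go below 0.1.

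For 3xHMG-box2, the paralogue of 3xHMG-box1, the wild-type log2 values were 9.40, 9.34 and 9.33 in replicates 1, 2 and 3. In 35S:miR396 they were 9.44, 9.56 and 9.25. Wild type lay wholly inside the range of 35S:miR396, in which replicate 2 was the highest array and replicate 3 the lowest. Means were 9.36 ± 0.04 in wild type and 9.42 ± 0.16 in 35S:miR396 (SD, n = 3 each). Its log2 fold change was 0.06 ± 0.09 (SE), or 1.04-fold, with a 95% interval from 0.904-fold to 1.2-fold and an adjusted p of 0.634 by limma. The exact two-sided permutation test gave p = 0.6. The sign of this small difference depended on replicate 2 of 35S:miR396, without which the log2 fold change was -0.01 (adjusted p = 0.916 by limma), and with array weights it was -0.04.

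BUBR1 gave the lowest values of the 3 genes and the largest difference. Its log2 values were 4.76, 4.45 and 4.60 in replicates 1, 2 and 3 of wild type. In 35S:miR396 they were 4.22, 4.44 and 4.07. All 3 arrays of 35S:miR396 lay below all 3 of wild type, but only 0.013 separated the highest of the former, replicate 2, from the lowest of the latter, also replicate 2. Means were 4.60 ± 0.15 in wild type and 4.24 ± 0.18 in 35S:miR396 (SD, n = 3 each). The log2 fold change was -0.36 ± 0.14 (SE), a level 1.28-fold lower in 35S:miR396, with a 95% interval from 1.02-fold to 1.61-fold lower. Its unadjusted p was 0.0379 and its adjusted p was 0.102 by limma, so it did not pass the test, and the exact two-sided permutation p was 0.1, the smallest that 3 against 3 arrays can give. The missing call depended on the arrays used. Without replicate 2 of 35S:miR396 the log2 fold change was -0.46 and the adjusted p 0.049 by limma. With array weights it was -0.41 (adjusted p = 0.0316 by limma). The weights in replicates 1, 2 and 3 were 0.538, 0.403 and 2.50 in 35S:miR396 and 1.01, 2.50 and 0.731 in wild type. Both settings discount replicate 2 of 35S:miR396, but the weighted value also rests largely on replicate 3 of 35S:miR396, the lowest BUBR1 array, and replicate 2 of wild type. In these settings calls over the whole table rose as well, from 2838 of 11364 to 3813 without that replicate and 4749 with array weights. In a meristem sample, fewer dividing cells and less BUBR1 RNA per cell cannot be told apart.

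**Figure D1:**
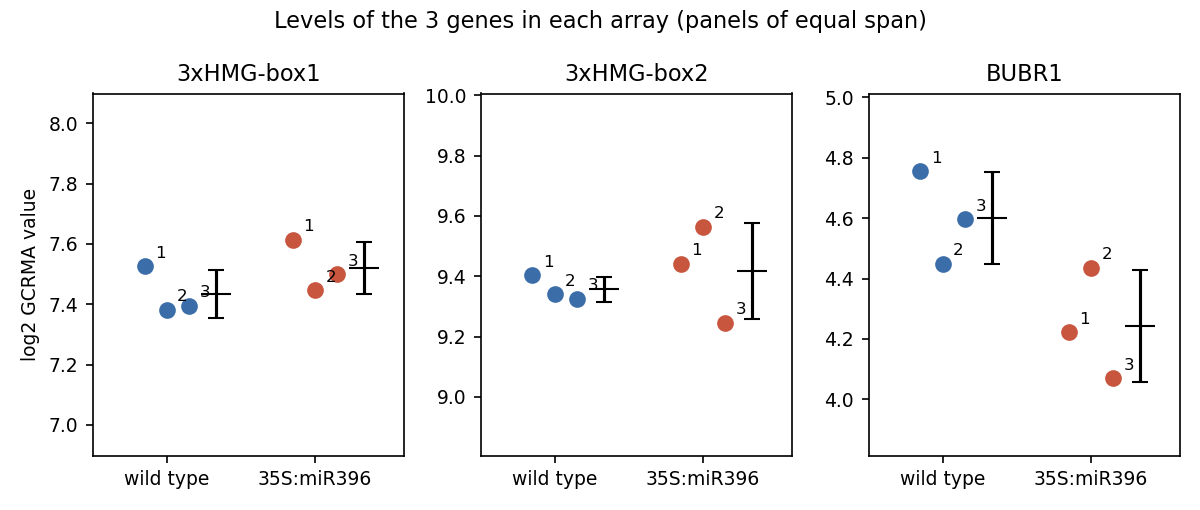
Log2 GCRMA value (vertical axis) of 3xHMG-box1, 3xHMG-box2 and BUBR1 in each of the 3 wild-type (blue) and 3 35S:miR396 (red) arrays, numbered by replicate, with the mean and SD of each group in black. The groups overlap for both 3xHMG-box genes, and for BUBR1 the 35S:miR396 arrays lie between 4.07 and 4.44, below the wild-type arrays at 4.45 to 4.76.

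The precision differed between the genes, as did their place among all tested probe sets. The mean level of 3xHMG-box2 was above that of 87.8% of the tested probe sets, that of 3xHMG-box1 above 66.3% and that of BUBR1 above 7.15%. These places compare signals of different probe sets and do not order the genes by transcript number. The SE of 3xHMG-box1 was 0.08 and that of 3xHMG-box2 was 0.09, against a median of 0.11 over all tested probe sets, and that of BUBR1 was 0.14. With these errors an adjusted p under 0.05 needed a log2 difference of at least 0.28 for 3xHMG-box1, 0.29 for 3xHMG-box2 and 0.47 for BUBR1. The absolute log2 fold change of 3xHMG-box1 was larger than that of 22.4% of the tested probe sets and that of 3xHMG-box2 larger than that of 16.2%. BUBR1 had a larger one than 70.4%, and the median absolute log2 fold change over all tested probe sets was 0.21.

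**Figure D2:**
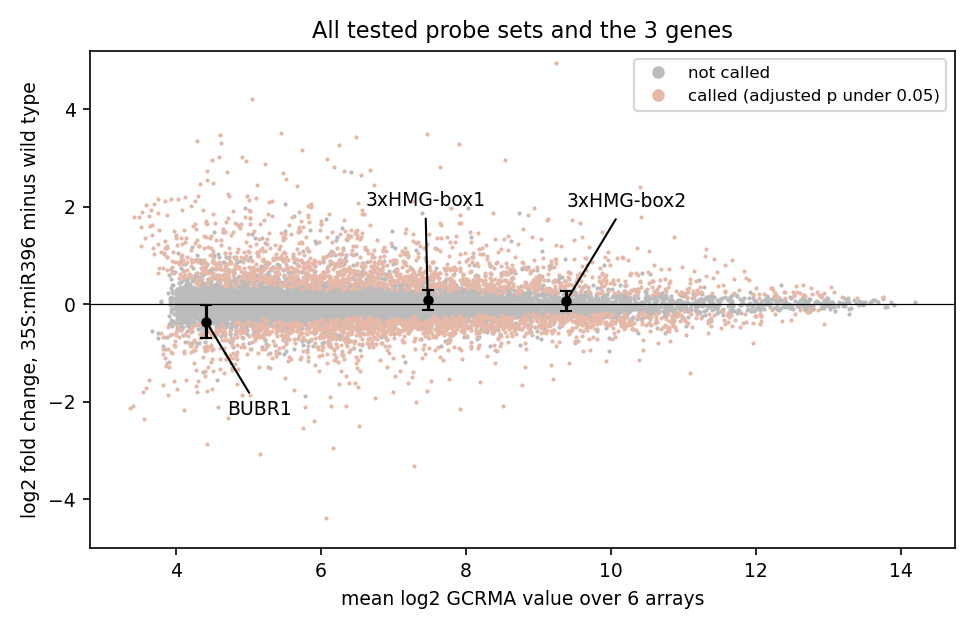
Log2 fold change, 35S:miR396 minus wild type (vertical axis), against the mean log2 GCRMA value over 6 arrays (horizontal axis) for the 11364 tested probe sets, called ones in light red and the others in grey, with the 3 genes in black and their 95% intervals as bars. Both 3xHMG-box genes lie near 0 within the cloud, and BUBR1 lies at the dim end at -0.36.

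Whether the 3 genes responded unequally was examined by subtracting their log2 values within each array, for 3 pairs of genes. The 3xHMG-box1 response exceeded that of 3xHMG-box2 by 0.02 on the log2 scale, with overlapping groups (exact permutation p = 0.9, and 0.9 after Benjamini-Hochberg adjustment over the 3 pairs). That difference was not larger than its SD over arrays, 0.04 in wild type and 0.19 in 35S:miR396, and it ranged from -0.05 to 0.13 when 1 array was left out. The log2 fold change of 3xHMG-box1 was 0.44 above that of BUBR1, and the subtracted values did not overlap, at 2.77, 2.93 and 2.80 in wild type and 3.39, 3.01 and 3.43 in 35S:miR396. That of 3xHMG-box2 was 0.42 above BUBR1, again without overlap, at 4.65, 4.89 and 4.73 in wild type and 5.22, 5.13 and 5.18 in 35S:miR396. Both comparisons with BUBR1 gave the smallest exact permutation p of this design, 0.1, and 0.15 after adjustment over the 3 pairs. In both comparisons all 3 arrays of 35S:miR396 lay above all 3 of wild type, a separation that cannot pass a threshold of 0.05 with 3 arrays in each group.

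The whole table gives the setting for these values. The first principal component of the tested probe sets held 70.4% of the variance and separated the genotypes, and replicate 2 of 35S:miR396 had the score nearest to wild type. For BUBR1 this replicate was also the nearest to wild type, while for 3xHMG-box2 it was the highest of all 6 arrays. What sets this array apart was not tested. Of 8 fixed markers of the root meristem 2 had a named probe set: BBM, a regulator of the stem cell niche, was the only one tested, and CR4, a receptor kinase, lay between 2.75 and 3.22. BBM lay between 5.52 and 5.67 in wild type and between 6.92 and 7.37 in 35S:miR396, where it was 2.83-fold higher (adjusted p = 0.00122, limma). EXPA7 and EXPA18, expansins of root hair cells and 2 of 12 markers of differentiated root cells, were at 2.25 to 2.38, at or near the lowest value of the table, 2.25. Markers of the root cap (4) and of green tissue (5) had no probe set that the annotation names. Whether cell composition has a part in the BUBR1 values was not tested.

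Genes that work with the 3 were read from the same test. The 6 lists of division genes held 93 genes, of which 23 had a probe set that the annotation names and 21 were tested. Of these 21, 2 were higher, 1 was lower and 18 did not pass, which is 14.3% called against 25.0% of all tested probe sets. No test was made of that difference. The 21 include the 3 genes themselves. Without them 18 genes were tested, with 2 higher and 1 lower, or 16.7% called. None of the 21 was called by limma when any of these arrays was left out: wild-type replicates 2 and 3 and 35S:miR396 replicates 1 and 3. With no filter on dim values 23 list genes were tested and none was called either. Calls over the whole table also fell in these settings, from 2838 of 11364. They were 941 of 22746 with no filter, and from 1052 to 1606 of 11364 without 1 of those arrays. The median log2 fold change over the 21 was -0.01, and -0.01 over all tested probe sets.

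The spindle assembly checkpoint list had 6 tested genes of 12, BUBR1 among them. Of the 6, 1 was called, or 16.7% against 25.0% of all tested probe sets, and it rose. That gene is AT1G69400, for which the annotation gives only this locus code; it was entered in the list as a further BUB3 gene beside BUB3.1 and BUB3.2. Its log2 values in wild type were 4.67, 4.23 and 3.98 in replicates 1, 2 and 3, and in 35S:miR396 they were 5.21, 5.15 and 4.86, above every wild-type array. It rose by 0.78 ± 0.19 (log2, SE), or 1.72-fold, with an adjusted p of 0.0283 by limma. This call was lost without replicate 2 (0.75, adjusted p = 0.0932 by limma) or 3 (0.63, 0.0762) of wild type, without replicate 1 (0.71, 0.083) or 3 (0.89, 0.0516) of 35S:miR396, and with no filter on dim probe sets (0.128). BUB3.1 and BUB3.2, the other entries of the BUB3 family, and ATZW10, named for a kinetochore protein of flies, are named outside the rule, after their values were seen. In animals BUB3 anchors BUBR1 at kinetochores. BUB3.1 had a log2 fold change of -0.01 ± 0.08 (SE) with a 95% interval from 0.867-fold to 1.14-fold, and BUB3.2 of -0.04 ± 0.11 (SE). ATZW10 had 0.08 ± 0.12 (SE). The remaining tested gene of this list, AT5G05510, was entered in it as BMF3 and is also named outside the rule. It had 0.15 ± 0.12 (SE), opposite in sign to BUBR1 and not called. The median log2 fold change of the 6 was 0.04, with 3 values below 0 and 3 above.

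Of the anaphase-promoting complex, whose activity the checkpoint holds back, 2 of 16 listed genes were tested. Neither passed, where 25.0% of all tested probe sets did. HBT and CDC27a encode alternative forms of the same subunit. HBT had log2 values of 6.23 ± 0.08 in wild type and 6.15 ± 0.23 (SD, n = 3 each) in 35S:miR396, a log2 fold change of -0.08 ± 0.13 (SE). CDC27a had -0.08 ± 0.17 (SE), at a level near the minimum of 4. Neither had an unadjusted p under 0.05 by limma, against 40.4% of all tested probe sets.

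Of the genes of kinetochore and centromere, the structures at which the checkpoint acts, 4 of 8 listed were tested. None was called by limma, against 25.0% of all tested probe sets, and 1 of the 4 had an unadjusted p under 0.05, against 40.4%. That gene was HTR12, which encodes the histone H3 variant of centromeres (CENH3). Its log2 values were 5.63, 5.69 and 5.98 in replicates 1, 2 and 3 of wild type and 5.36, 5.45 and 5.42 in 35S:miR396. These groups did not overlap, as was so for 45.7% of all tested probe sets. Its log2 fold change was -0.36 ± 0.12 (SE), with an adjusted p of 0.0631 by limma, a size like that of BUBR1. AT3G08880 had -0.11 ± 0.14 (SE), and the median over the 4 genes was -0.03, with 2 values below 0 and 2 above.

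Among HMG-box proteins 7 of 15 listed genes could be named on the array and 5 reached the minimum, both 3xHMG-box genes included. None of the 5 passed limma's test, against 25.0% of all tested probe sets. None had an unadjusted p under 0.05, against 40.4%. AT2G34450 had a log2 fold change of 0.23 ± 0.13 (SE, adjusted p = 0.212 by limma) and AT5G23405 of -0.12 ± 0.12 (SE). The 5 values ran from -0.12 to 0.23 with a median of 0.06. The listed loci AT1G04880 and AT1G76110 stayed between 2.26 and 2.63 in all 6 arrays and were not tested.

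In the list of G2 and mitosis genes 3 of 29 were tested, all of them Aurora kinases, which phosphorylate mitotic chromosomes and the spindle. Of these 3 genes 66.7% were called, against 25.0% of all tested probe sets. AUR2, named outside the rule, had a log2 fold change of -0.12 ± 0.08 (SE) and was not called. Its groups did not overlap, as was so for 45.7% of all tested probe sets. AUR3 had a log2 fold change of 0.76 ± 0.19 (SE, adjusted p = 0.0277 by limma) and AUR1 of -0.29 ± 0.09 (SE, 0.0491), but the call of AUR3 was lost in 5 of 12 alternatives and that of AUR1 in 10 of 13. Both calls ended when any of these arrays was left out: wild-type replicates 2 and 3 and 35S:miR396 replicates 1 and 3, while the call of AUR1 also ended without wild-type replicate 1. The only tested gene of S phase and DNA replication, of 13 listed, was PRL, which encodes MCM7 of the replicative helicase, at -0.09 ± 0.10 (SE).

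**Figure D3:**
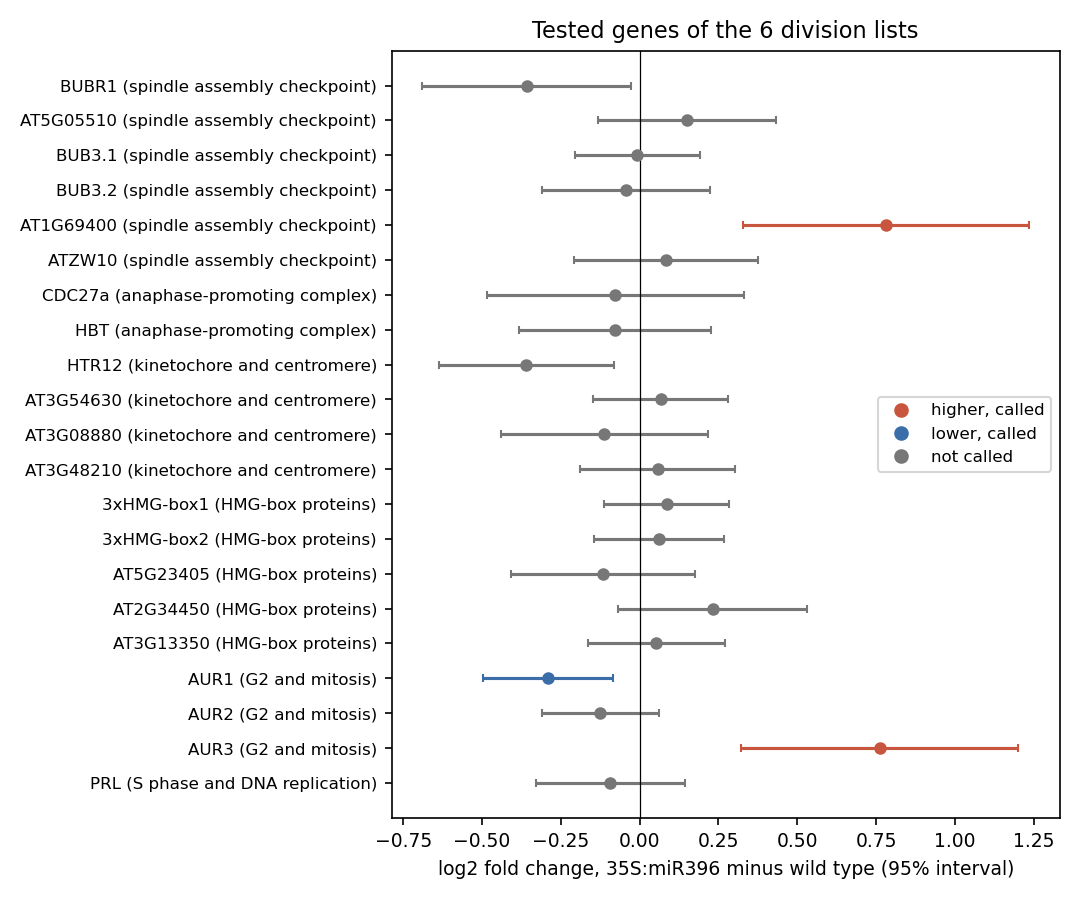
Log2 fold change, 35S:miR396 minus wild type (horizontal axis), with its 95% interval for the 21 tested genes of the 6 division lists, called ones in red (higher) or blue (lower) and the others in grey. AT1G69400 and AUR3 lie to the right of 0, AUR1 to the left, and BUBR1 and HTR12 share a value of -0.36 without a call.

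The probe sets with patterns most like each gene were found by the Pearson correlation of log2 values over the 6 arrays, among 6228 other tested probe sets with 1 gene. This is a description: 6 arrays in 2 groups give many high values, and the difference between the groups enters the correlation. For 3xHMG-box1 the nearest were MYBC1 (r = 0.991), AT1G27290 (0.989), AT5G14970 (0.985) and AT2G36720 (0.980), and 114 probe sets had r above 0.9. For 3xHMG-box2 they were AT2G25970 (r = 0.991), AT1G55460 (0.988), AT2G22400 (0.978) and AT5G15810 (0.975), with 31 above 0.9. For BUBR1 they were AT3G11590 (r = 0.998), AT3G15180 (0.997), AT3G12640 (0.991) and ZCF125 (0.990), with 230 above 0.9. None of these 12 genes was called by limma, against 25.0% of all tested probe sets. They were picked for likeness to 3 genes that were themselves not called, so this count is no separate result. Neither 3xHMG-box gene was among the 4 nearest of the other.

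**Figure D4:**
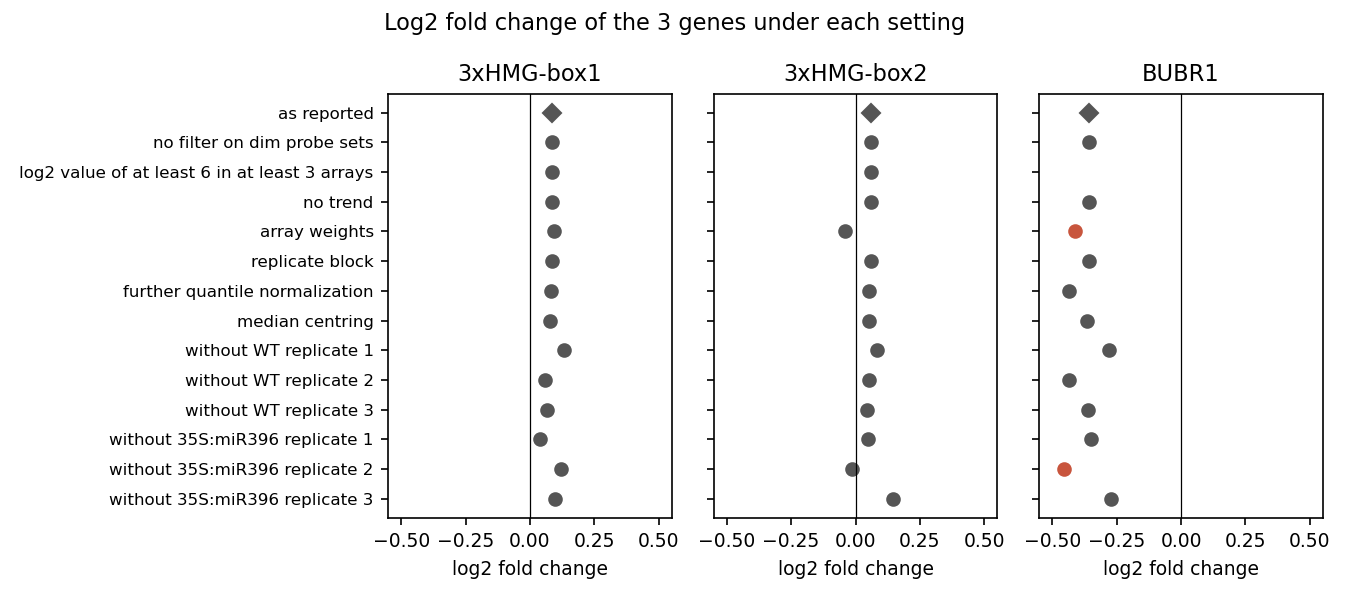
Log2 fold change (horizontal axis) of the 3 genes as reported (diamond) and under each alternative setting (circles), in red where the adjusted p was under 0.05. The values of 3xHMG-box1 stay between 0.04 and 0.13, those of 3xHMG-box2 fall on both sides of 0, and those of BUBR1 lie between -0.46 and -0.27 with 2 in red; BUBR1 has no value at a minimum of 6, which it does not reach.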

How the data were processed

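The deposited table holds 1 log2 value for each probe set and array, and GCRMA, of unstated version, is the tool that the submitters' processing notes name for it. RNA was labelled by a kit working from the 3' end of transcripts, per the labels' protocols. GCRMA draws dim probe sets to a floor, which can compress differences of low genes. Whether this touched BUBR1, with values from 4.07 to 4.76, was not tested. The log2 scale was read from the values, which ran from 2.25 to 14.3.

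Control probe sets (64) were left out, and 11364 probe sets with a log2 value of at least 4 in at least 3 of 6 arrays were fitted with limma 3.58.1 in R 4.3.3 (lmFit, then eBayes with a trend; two-sided; Benjamini-Hochberg over all tested). On simulated arrays of these 11364 probe sets, 200 of them changed, the fit recovered 56.4% of 55 changed by a fold of 1.5, 79.4% of 68 changed by a fold of 2 and 96.1% of 77 changed by a fold of 4, with 3.64% false calls. In the real arrays 25.0% of the tested probe sets were called, a far larger share than was changed in the simulation. The adjusted p depends on that share, so these recovery and false-call rates describe the simulated arrays only. They are not estimates for the real comparison. The number of arrays limits the precision.

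Probe sets were named from the platform annotation, with 1 gene for 13513, and matched by gene identifier to a RefSeq table of TAIR10.1. A list gene took its probe set with the highest mean. Named were the 3 genes, every called gene of a list or otherwise its 2 largest differences, and the 4 most alike patterns per gene. Members and lists were chosen with earlier results of these data known.

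Alternatives were other filters, no trend, array weights, a replicate block, further scaling and leaving out each array.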

Additional observations from a re-analysis of the deposited data

How the results depend on the processing

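The number of probe sets called, 2838, was 941 when dim probe sets were kept and 4749 with array weights, and ran from 1052 without replicate 2 of wild type to 3813 without replicate 2 of 35S:miR396. For 3xHMG-box1 the direction and the missing call held in all 13 alternatives, at log2 fold changes from 0.04 to 0.13. For 3xHMG-box2 no alternative gave a call, but the sign turned with array weights (-0.039) and without replicate 2 of 35S:miR396 (-0.013), and the values without 1 array ran from -0.013 to 0.147. BUBR1 stayed lower in 12 alternatives and passed in 2 of them, with array weights (-0.41) and without replicate 2 of 35S:miR396 (-0.46). Both of these settings discount that replicate, and array weights also discount replicate 1 and favour replicate 3 of 35S:miR396. The BUBR1 values without 1 array ran from -0.46 to -0.27, and BUBR1 has no value at a minimum of 6. The difference between the 3xHMG-box genes was -0.051 when replicate 3 of 35S:miR396 was left out, -0.011 for replicate 1 and 0.134 for replicate 2, and the differences of both from BUBR1 kept their sign in 9 alternatives each. Of the division lists, where 3 genes were called, 0 were called with no filter, 1 at a minimum of 6 and 5 with array weights, and from 0 to 4 without 1 array. The adjusted p reached 0.128 for AUR3, 0.139 for AUR1 and 0.128 for AT1G69400, by limma. The cause of these changes was not tested, except that the stricter minimum leaves 9 list genes to test.

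Samples that share a replicate number did not deviate together in every pair, with correlations of 0.40, -0.09 and 0.14 over tested probe sets for numbers 1, 2 and 3, so the numbers are not taken to pair them. With the replicate block the log2 fold changes were as reported, 0.09, 0.06 and -0.36, and BUBR1 had an adjusted p of 0.141 by limma. The number of arrays, 3 in each group, limits the precision. BUBR1, with the lowest signal of the 3 genes, had the largest SE, and whether the low signal accounts for it was not tested.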
